A study of Mus musculus with 9 samples.

Results

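The genes described here encode the nuclear subunits of respiratory chain complexes II and III, cytochrome c, the subunits of complex IV that most tissues share, and complex V, the ATP synthase. They were taken by name from the platform annotation: Sdha to Sdhd, Cyc1, Cycs, Cox5a, Cox5b, Cox6b1, Cox6c, Cox7b, Cox7c and every symbol that begins with Uqcr or Atp5. That gave 45 rows for 40 genes, and the row with the highest mean over the 9 arrays stood for each gene. All 40 passed the filter on low values, among 16914 genes tested in all. By their names 36 are subunits: 4 of complex II, 9 of complex III, cytochrome c, 6 of complex IV and 16 of complex V. The other 4 are not subunit genes. The rows named Atp5l-ps1, Atp5l2-ps and Atp5c1-ps are pseudogenes by name, and the row annotated Atp5sl is the gene now named Dmac2, an assembly factor of complex I. No row of the gamma subunit gene of complex V entered the set, and that gene is not analysed here.

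Complex II oxidises succinate in the citric acid cycle and passes the electrons to ubiquinone. Complex III carries them on to cytochrome c and complex IV to oxygen, and both pump protons out of the mitochondrial matrix. Complex V lets the protons return and makes ATP. In brown and beige adipocytes the uncoupling protein UCP1 gives the protons another way back, which turns the gradient into heat. Rodent brown fat is known for much respiratory chain and little ATP synthase, and the gene Atp5g1, which encodes the ring subunit c, has been linked to that low content.

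RNA came from whole inguinal fat pads of adult mice and was hybridised to 1 array per sample, 3 in each of 3 groups. The knockouts (Adiponectin-rtTA; Tre-CRE; Zfp423loxP/loxP) were kept at room temperature. The cold controls and the room temperature controls both carried Adiponectin-rtTA and TRE-Cre with wild-type Zfp423 (Zfp423+/+), and the cold controls spent the last 14 days at 6 °C. All 9 samples, controls included, came from mice that received doxycycline from 8 weeks of age for 28 days, and rtTA expression is driven by Adiponectin, an adipocyte gene, so the other cells of the pad are not targeted. The study asked how alike Zfp423-deficient and cold-induced fat are. Whether each array stands for its own mouse is not stated, and p-values measure array-to-array spread, some of which may be technical.

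Zfp423 read 7.56, 8.14 and 8.04 log2 units in the knockouts against 8.74, 8.22 and 8.40 in the room temperature controls, without overlap, but the difference of -0.53 ± 0.20 (SE) did not pass (limma adjusted p = 0.255). Of 12 adipocyte markers 11 were measured, with array means from 15.9 to 16.6 in the knockouts, 16.7 to 16.8 in the cold controls and 16.3 to 16.7 in the room temperature controls, whereas 0 of 8 mammary epithelial markers passed the filter. One array of each group lay between the other 2 for most genes: knockout replicate 3 for 73.7% of the genes with 3 different values, cold replicate 2 for 52.9% and room temperature control replicate 3 for 67.3%. Counts are therefore also given without these 3 arrays. Knockout replicates 1 and 2 stood apart on the genes described here, as shown next. A difference of 1 log2 unit is a doubling. The number of arrays limits the precision, and in a whole tissue fewer cells of a type and less RNA per cell cannot be told apart.

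Before the values, 3 promoters are shown: that of Uqcrc1, which had the highest difference in the cold, that of Sdhd, which holds 3 kinds of motif searched for, and that of Atp5g1, the subunit gene that read lower on every knockout and cold array. Each is the RefSeq window of 250 bases before and 50 after the gene's start (GRCm38.p6), written 5′ to 3′ on the gene's strand. Uqcrc1 lies at chr9:108936398-108936697 on the plus strand, Sdhd at chr9:50603800-50604099 on the minus strand and Atp5g1 at chr11:96075582-96075881 on the minus strand. Capitals mark matches, on either strand, to the NRF1 motif (GCGCA and GCGC parted by any 1 base), CCGGAAG (the core bound by GABP and other ETS factors), AAGATGGCG (YY1) or AAGGTCA (bound by nuclear receptors such as ERR alpha).
Uqcrc1: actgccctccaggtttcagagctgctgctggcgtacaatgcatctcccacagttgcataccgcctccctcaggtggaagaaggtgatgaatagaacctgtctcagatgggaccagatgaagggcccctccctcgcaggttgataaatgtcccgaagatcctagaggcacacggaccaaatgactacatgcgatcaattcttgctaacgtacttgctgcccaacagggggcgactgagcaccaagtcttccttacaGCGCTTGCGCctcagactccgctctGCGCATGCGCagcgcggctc
Sdhd: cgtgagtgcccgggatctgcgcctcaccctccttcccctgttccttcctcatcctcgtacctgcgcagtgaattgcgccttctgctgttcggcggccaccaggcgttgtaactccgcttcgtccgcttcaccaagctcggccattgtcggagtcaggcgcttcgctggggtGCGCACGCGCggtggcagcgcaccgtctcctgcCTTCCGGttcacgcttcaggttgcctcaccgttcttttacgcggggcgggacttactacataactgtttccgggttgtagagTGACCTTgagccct
Atp5g1: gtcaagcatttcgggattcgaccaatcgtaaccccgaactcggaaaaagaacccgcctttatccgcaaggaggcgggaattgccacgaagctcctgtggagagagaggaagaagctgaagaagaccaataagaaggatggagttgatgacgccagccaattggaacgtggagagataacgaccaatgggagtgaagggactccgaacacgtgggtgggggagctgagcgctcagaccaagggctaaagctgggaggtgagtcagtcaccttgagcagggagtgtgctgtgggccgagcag
The Uqcrc1 window held NRF1 matches that begin at positions 6 and 31 from the start, and the one at 31 reads the same on both strands. In the Sdhd window an NRF1 match began at base -79 and a GABP match at -46, with an ERR match at position 37, the GABP and ERR letters being on the opposite strand. None of the 4 motifs was found in the Atp5g1 window.

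A window was available for 29 of the 40 genes. The NRF1 letters occurred in 8 of these 29 (27.6%), against 10.8% of the 10101 tested genes with a window and 4.60% of all 32851 windows. The GABP letters occurred in 11 (37.9%, against 18.8% and 8.86%), the YY1 letters in 3 (10.3%, against 3.29% and 1.40%) and the ERR letters in 5 (17.2%, against 3.87% and 4.72%). A gene with several windows counted where any of them matched. A GABP and a YY1 match can overlap in the letters AAG. Among complex II genes Sdha held the NRF1 letters, Sdhb the GABP letters and Sdhd the NRF1, GABP and ERR letters. Sdhc had no window and was not searched, nor were Cyc1, Uqcrc2, Uqcrq, Cox6c and Atp5a1, which also rose in the cold. Cox5a, Cox5b, Cycs and Atp5b, whose cold arrays all lay above the room temperature controls, held none of the 4. A match is a description of the letters and not a site of binding.

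Of the 36 subunits, 34 had a higher mean in the knockouts and 35 in the cold controls than in the room temperature controls. The median difference over all 40 genes was 0.90 log2 units in the knockouts and 1.11 in the cold controls, where the median over all genes tested was 0.02 and -0.02. In the knockouts 0 of 40 passed (limma, Benjamini-Hochberg adjusted p under 0.05), against a background of 0.361% of all genes called in either direction (0.225% higher and 0.136% lower), while 37 of the 40 had an unadjusted p under 0.05, as did 2737 of the 16914 genes tested. For 22 of the 36 subunits the adjusted p in the knockouts lay between 0.05 and 0.1. In the cold controls 14 of 40 rose and 0 fell, against 1.32% and 0.189% of all genes (1.51% in either direction). Of these 14, 13 were subunits and 1 was the pseudogene row Atp5l2-ps. With the Cycs and Atp5l rows on the genes' own chromosomes, 13 of 40 rose, where 254 of all genes were called. The arrays did not overlap for 36 genes higher and 1 lower in the knockouts (background 9.32% and 8.01%), and for 35 higher and 1 lower in the cold controls (14.6% and 18.1%). Both comparisons use the same 3 room temperature control arrays.

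Without the 3 arrays that lay between the others, 0 of 40 passed in the knockouts and 0 in the cold controls (limma, 23 and 25 at an unadjusted p under 0.05), in a fit on 6 arrays that called 0 of all 16914 genes in either comparison. The counts also turned on single arrays. Without knockout replicate 1, 32 genes passed higher and 1 lower in the knockouts, where 828 of all 16914 genes were called. Without control replicate 2 the count was 2 (343 of all genes) and without knockout replicate 2 it was 1 (37 of all genes). In the cold comparison the count was 32 without knockout replicate 1 or 2, which enter through the shared spread, where 826 and 986 of all genes were called. It was 3, 3 and 0 without room temperature control replicates 1, 2 and 3, then 4 without knockout replicate 3, and 1, 0 and 3 without cold replicates 1, 2 and 3. In these 7 fits between 23 and 123 of all genes were called. The median difference stayed above 0 over the 20 alternatives. In the knockouts it lay between 0.67, without knockout replicate 2, and 1.11, without knockout replicate 1, and so turned on single arrays. In the cold controls it moved less, between 1.05 and 1.17.

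**Figure D1:**
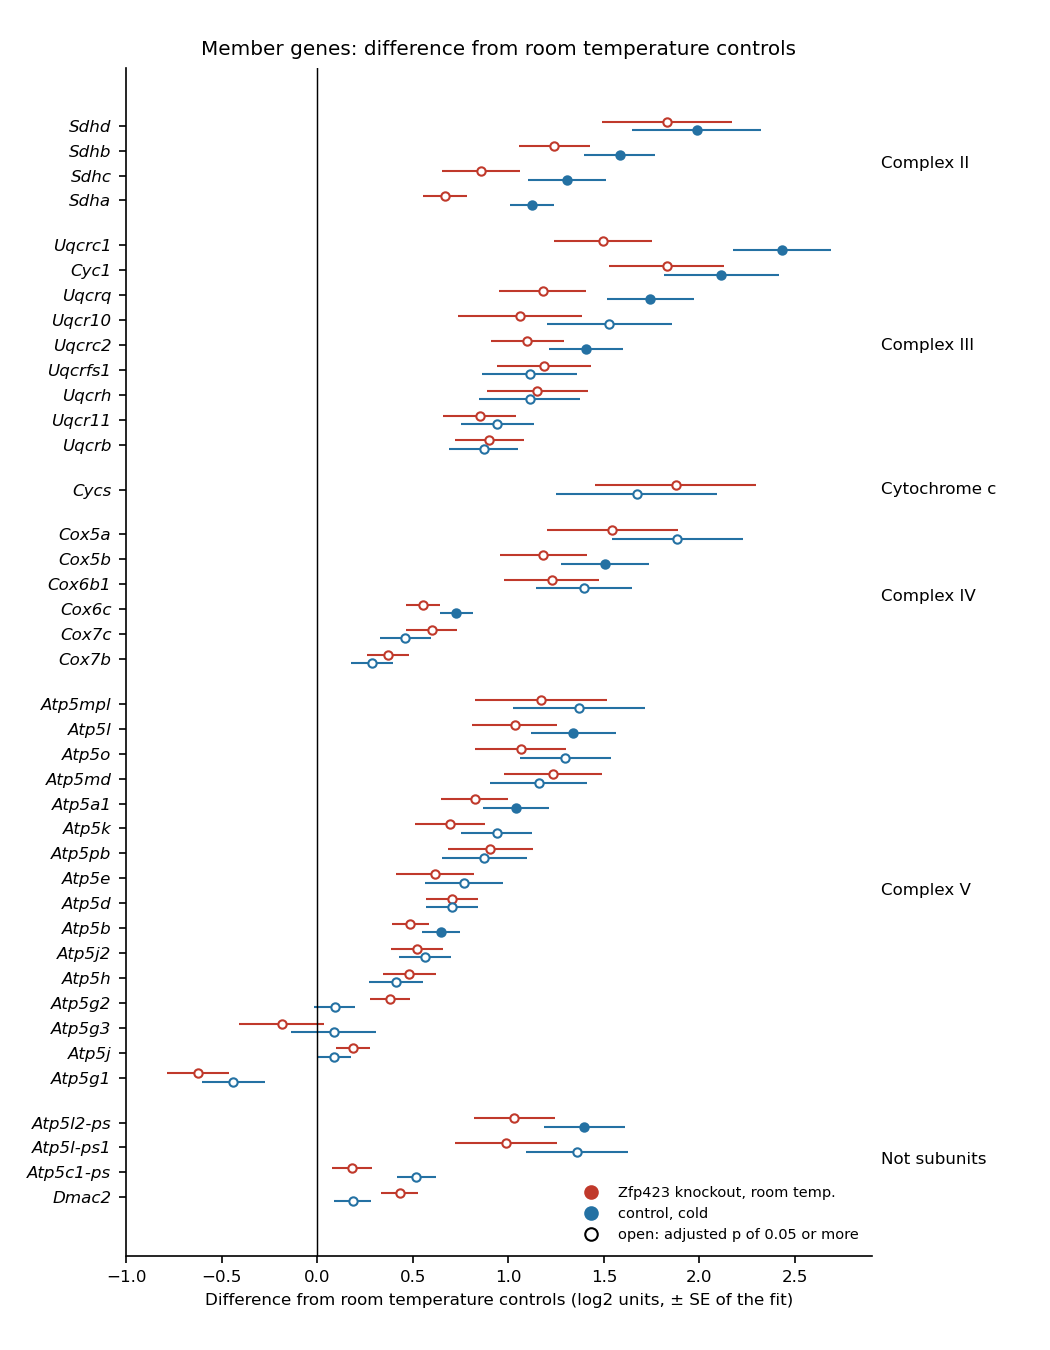
Difference of each of the 40 genes from the room temperature controls in log2 units, with the standard error of the fit as bars, knockouts above cold controls in each row and genes grouped by complex. Filled points passed the threshold: 14 in the cold controls and 0 in the knockouts. All of complexes II, III and IV lie to the right of 0, and Atp5g1 lies to the left in both comparisons.

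Complex II was the group in which each measured member rose in the cold, 4 of 4, with differences from 1.12 to 1.98. Sdhb, the iron-sulfur subunit, read 11.65, 12.32 and 11.95 in the knockouts, 12.51, 12.34 and 12.10 in the cold controls and 10.65, 10.93 and 10.62 in the room temperature controls. Every knockout and cold array thus lay above every room temperature control array. The difference was 1.24 ± 0.19 (SE) in the knockouts (limma adjusted p = 0.0527) and 1.58 ± 0.19 in the cold controls (limma adjusted p = 0.0138). Sdhd, a membrane anchor, read 13.25, 14.71 and 14.08 in the knockouts, 14.37, 14.21 and 13.92 in the cold controls and 12.36, 12.16 and 12.03 in the room temperature controls. The knockout arrays spread over more than a log2 unit and enclosed the cold arrays. Its differences were 1.83 ± 0.34 (limma adjusted p = 0.0733) and 1.98 ± 0.34 (limma adjusted p = 0.0422).

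Sdha, the flavoprotein that oxidises succinate, had the smallest difference of the complex in both comparisons. It read 13.68, 14.00 and 13.85 in the knockouts, 14.40, 14.31 and 14.18 in the cold controls and 13.34, 12.98 and 13.20 in the room temperature controls. The 3 groups did not overlap, with the cold arrays highest. Sdha stood at 0.67 ± 0.12 in the knockouts (limma adjusted p = 0.0644) and rose by 1.12 ± 0.12 in the cold (limma adjusted p = 0.0110). Sdhc, the other anchor, stood at 0.86 ± 0.20 in the knockouts (limma adjusted p = 0.109) and rose by 1.31 ± 0.20 in the cold (limma adjusted p = 0.0343), with 10.90, 11.73 and 11.29 in the knockouts, 11.69, 11.81 and 11.76 in the cold controls and 10.68, 10.39 and 10.27 in the room temperature controls. The 4 subunits bind to form 1 complex, and their median difference was 1.05 in the knockouts and 1.44 in the cold controls.

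In complex III, 4 of 9 genes rose in the cold and 0 fell, and the arrays of all 9 lay above the room temperature controls in both comparisons. Uqcrc1, a core protein on the matrix side, had the largest difference of the 40 genes in the cold. It read 13.83, 14.97 and 14.37 in the knockouts, 15.43, 15.39 and 15.16 in the cold controls and 12.82, 12.96 and 12.89 in the room temperature controls. The 3 groups did not overlap. Uqcrc1 stood at 1.5 ± 0.26 in the knockouts (limma adjusted p = 0.0618) and rose by 2.43 ± 0.26 in the cold (limma adjusted p = 0.0110), a 5.40-fold difference.

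Cyc1 encodes cytochrome c1, the haem protein that hands electrons to cytochrome c. Its values were 11.90, 13.20 and 12.37 in the knockouts, 12.90, 12.88 and 12.55 in the cold controls and 10.60, 10.75 and 10.63 in the room temperature controls. Every knockout and cold array was more than 1 log2 unit above the highest room temperature control. Cyc1 stood at 1.83 ± 0.30 in the knockouts (limma adjusted p = 0.0587) and rose by 2.11 ± 0.30 in the cold (limma adjusted p = 0.0257). Uqcrq, a small subunit, rose by 1.74 ± 0.23 in the cold, with 10.83, 11.76 and 11.29 in the knockouts, 11.99, 11.99 and 11.59 in the cold controls and 9.99, 10.20 and 10.15 in the room temperature controls (limma adjusted p = 0.0203). Uqcrc2, the other core protein, rose by 1.41 ± 0.19, with 14.39, 15.27 and 14.83 in the knockouts, 15.21, 15.13 and 15.09 in the cold controls and 13.76, 13.72 and 13.72 in the room temperature controls (limma adjusted p = 0.0229).

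The remaining 5 genes of complex III did not pass in the cold. Uqcr10, Uqcrfs1 (the Rieske iron-sulfur protein), Uqcrh (the hinge protein), Uqcr11 and Uqcrb stood between 0.87 and 1.53 in the cold controls and between 0.85 and 1.19 in the knockouts. Uqcrb was the lowest of the complex in the cold, at 0.87 ± 0.18 (limma adjusted p = 0.0713), with 15.16, 15.90 and 15.55 in the knockouts, 15.63, 15.50 and 15.40 in the cold controls and 14.82, 14.53 and 14.57 in the room temperature controls. Uqcr11 was the lowest in the knockouts, at 0.85 ± 0.19 (limma adjusted p = 0.0965), with 8.53, 9.23 and 8.60 in the knockouts, 8.93, 9.03 and 8.68 in the cold controls and 7.85, 8.04 and 7.93 in the room temperature controls.

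Cytochrome c, the soluble carrier between complexes III and IV, is encoded in body tissues by Cycs. It had the largest difference of the 40 genes in the knockouts, 1.88 ± 0.42 (limma adjusted p = 0.0965), and stood at 1.67 ± 0.42 in the cold controls (limma adjusted p = 0.107). The knockout arrays read 15.20, 17.08 and 16.44, the cold arrays 16.28, 15.92 and 15.91 and the room temperature control arrays 14.32, 14.41 and 14.36. Knockout replicate 2 was the highest value of all 40 genes on any array, and knockout replicate 1 lay below each cold array. This row belongs to a transcript cluster that the platform places on chromosome 19, whereas RefSeq places Cycs on chromosome 6. The dimmer row on chromosome 6 gave 1.76 in the knockouts and 1.47 in the cold controls (limma adjusted p = 0.0827 and 0.0971).

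**Figure D2:**
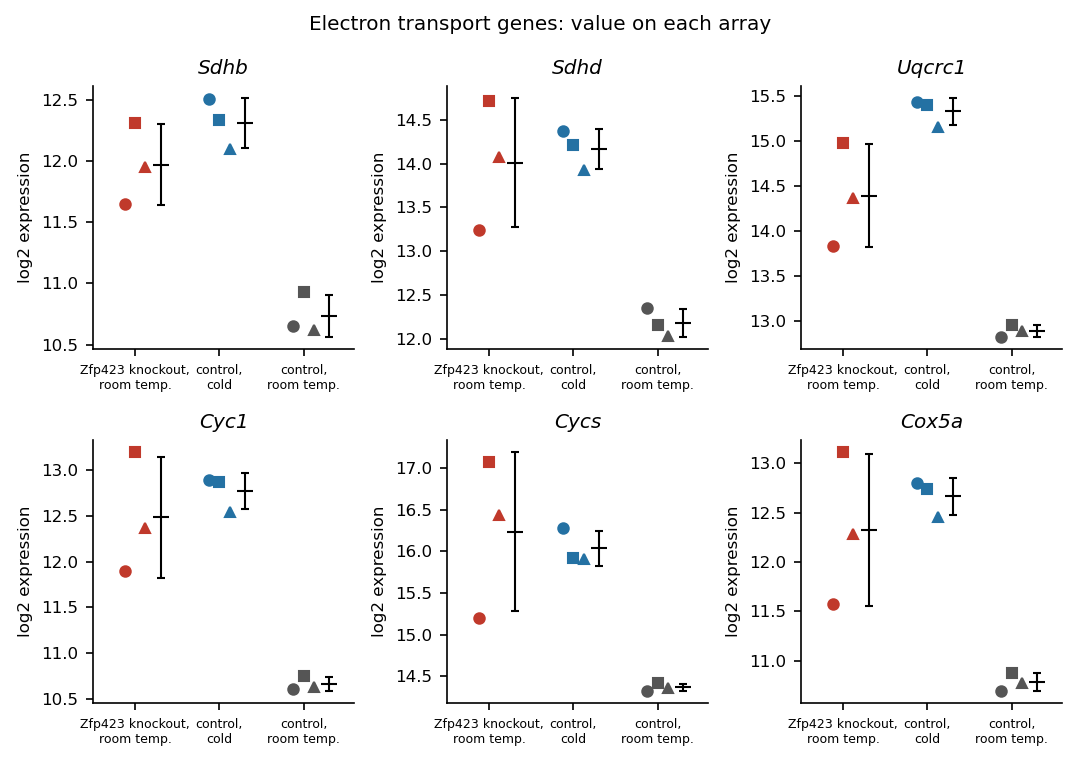
Log2 expression of 6 electron transport genes on each array, for knockouts, cold controls and room temperature controls from left to right, with the mean and SD of 3 arrays as bars. Circles, squares and triangles are replicates 1, 2 and 3. In each panel all knockout and cold arrays lie above the room temperature controls, and knockout replicate 1 is the lowest and replicate 2 the highest of the knockouts.

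Complex IV hands electrons to oxygen, and its genes described here are those with no second isoform, or whose common isoform was chosen. Of the 6, 2 rose in the cold and 0 fell. Cox5b, a zinc-binding subunit on the matrix side, rose by 1.5 ± 0.23 (limma adjusted p = 0.0318), with 13.69, 14.69 and 14.12 in the knockouts, 14.64, 14.52 and 14.30 in the cold controls and 12.98, 13.05 and 12.92 in the room temperature controls. It stood at 1.18 ± 0.23 in the knockouts (limma adjusted p = 0.0801). Cox6c rose by a smaller amount, 0.73 ± 0.09 (limma adjusted p = 0.0140), with 8.30, 8.63 and 8.41 in the knockouts, 8.59, 8.70 and 8.57 in the cold controls and 7.95, 7.84 and 7.89 in the room temperature controls. Its knockout arrays also lay above every room temperature control, and its difference there was 0.55 ± 0.09 (limma adjusted p = 0.0579).

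Cox5a, the partner of Cox5b on the matrix side, had the largest difference of the complex in both comparisons. The wider spread of Cox5a was mainly among the knockout arrays (SD 0.771, against 0.498 for Cox5b). In the cold controls the SDs were 0.185 and 0.170. The knockout arrays enter the cold comparison through the shared spread. Cox5a read 11.57, 13.11 and 12.29 in the knockouts, 12.80, 12.74 and 12.45 in the cold controls and 10.69, 10.87 and 10.78 in the room temperature controls. It stood at 1.54 ± 0.34 in the knockouts and 1.88 ± 0.34 in the cold controls (limma adjusted p = 0.0959 and 0.0515). Cox6b1, on the intermembrane side, stood at 1.23 ± 0.25 and 1.39 ± 0.25 (limma adjusted p = 0.0849 and 0.0501). At the low end were the membrane subunits Cox7c, at 0.60 ± 0.13 and 0.46 ± 0.13, and Cox7b, at 0.37 ± 0.11 and 0.29 ± 0.11, none of which passed. Cox7b read 12.88, 13.18 and 12.94 in the knockouts, 12.98, 12.88 and 12.88 in the cold controls and 12.42, 12.73 and 12.74 in the room temperature controls. On this row 3 arrays hold 1 identical value. Of the 40 rows, 5 have a value shared exactly by 2 or more arrays, as do 56.6% of all genes tested.

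In complex V, 3 of 16 genes rose in the cold and 0 fell, and the median difference, 0.66 in the knockouts and 0.74 in the cold controls, was below that of complexes II (1.05 and 1.44), III (1.15 and 1.41) and IV (0.89 and 1.06). These medians are descriptions, and the difference between complexes was not tested. Without the 3 subunit c genes the median of complex V was 0.70 and 0.88. The mean level and the difference were related across the 36 subunits, which share arrays and probe chemistry, with a Spearman rho of 0.40 in the knockouts and 0.38 in the cold controls.

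The catalytic head F1 gave 2 of 4 genes that rose in the cold. Atp5a1, the alpha subunit, rose by 1.04 ± 0.18 (limma adjusted p = 0.0398), with 15.53, 16.32 and 15.92 in the knockouts, 16.18, 16.11 and 16.12 in the cold controls and 15.05, 15.11 and 15.13 in the room temperature controls. Atp5b, the beta subunit that holds the catalytic sites, rose by 0.65 ± 0.10 (limma adjusted p = 0.0316), with 14.73, 15.11 and 14.95 in the knockouts, 15.18, 15.08 and 15.01 in the cold controls and 14.49, 14.36 and 14.48 in the room temperature controls. In the knockouts these genes stood at 0.83 ± 0.18 and 0.49 ± 0.10 (limma adjusted p = 0.0873 and 0.0844). Atp5d and Atp5e, subunits of the central stalk, stood at 0.70 ± 0.14 and 0.62 ± 0.20 in the knockouts and at 0.70 ± 0.14 and 0.77 ± 0.20 in the cold controls, and did not pass.

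The peripheral stalk holds the head still while the ring turns, and 0 of its 4 genes passed in either comparison (limma). Atp5o, which caps the stalk, stood at 1.07 ± 0.24 in the knockouts and 1.30 ± 0.24 in the cold controls (limma adjusted p = 0.0959 and 0.0518). Atp5pb (annotated Atp5f1, subunit b) stood at 0.91 ± 0.22 and 0.88 ± 0.22, and Atp5h (subunit d) at 0.48 ± 0.14 and 0.41 ± 0.14. Atp5j, coupling factor 6, stood at 0.19 ± 0.09 and 0.09 ± 0.09, and its arrays overlapped with the room temperature controls in both comparisons. On the Atp5j row 5 of the 9 arrays hold 1 identical value.

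Of the 5 small membrane subunits, 1 rose in the cold. Atp5l, subunit g, rose by 1.34 ± 0.22 (limma adjusted p = 0.0388), with 14.80, 15.74 and 15.20 in the knockouts, 15.74, 15.48 and 15.45 in the cold controls and 14.13, 14.33 and 14.18 in the room temperature controls. Its row lies in a cluster on chromosome 5, while RefSeq places Atp5l on chromosome 9, and the brightest row on chromosome 9 gave 0.75 in the cold with a limma adjusted p of 0.0829. The row of Atp5l2-ps rose by 1.40 ± 0.21 in the cold (limma adjusted p = 0.0316), with 13.32, 14.26 and 13.73 in the knockouts, 14.28, 14.06 and 14.08 in the cold controls and 12.71, 12.81 and 12.70 in the room temperature controls, and that of Atp5l-ps1 stood at 1.36 ± 0.27 (limma adjusted p = 0.0633). These copies may share probes with Atp5l, and the array cannot part them. Atp5mpl, a small proteolipid, had the largest difference of complex V in the cold, 1.37 ± 0.35, and Atp5md, known as DAPIT, the largest in the knockouts, 1.23 ± 0.26. Neither passed in either comparison. Atp5mpl read 14.13, 15.66 and 14.97 in the knockouts, 15.25, 15.17 and 14.93 in the cold controls and 13.94, 13.71 and 13.59 in the room temperature controls. Atp5md read 13.29, 14.43 and 13.86 in the knockouts, 13.83, 13.75 and 13.77 in the cold controls and 12.78, 12.64 and 12.45 in the room temperature controls. Atp5k (subunit e) and Atp5j2 (subunit f) stood at 0.70 ± 0.18 and 0.52 ± 0.14 in the knockouts and at 0.94 ± 0.18 and 0.56 ± 0.14 in the cold controls.

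The 3 genes of subunit c had a median difference of -0.19 in the knockouts and 0.09 in the cold controls, and 0 of 3 passed (limma, 2 and 1 at an unadjusted p under 0.05). They differed among themselves, and whether they differ from the other subunits was not tested. They encode the same mature ring protein behind different import sequences. Atp5g1 read 8.12, 7.61 and 7.79 in the knockouts, 8.26, 8.06 and 7.75 in the cold controls and 8.56, 8.36 and 8.47 in the room temperature controls. All knockout arrays and all cold arrays lay below all room temperature control arrays, which held for no other of the 40 genes. Such arrays are common: 8.01% of all genes tested lay lower without overlap in the knockouts and 18.1% in the cold controls. The difference was -0.62 ± 0.16 in the knockouts (95% interval -1.01 to -0.24, limma adjusted p = 0.136) and -0.44 ± 0.16 in the cold controls (-0.82 to -0.05, limma adjusted p = 0.207). It kept its sign in all 20 alternatives of both comparisons, from -0.77 to -0.51 in the knockouts and from -0.56 to -0.30 in the cold controls. It passed in 2 of the 20 in the knockouts and in 1 of the 20 in the cold controls. The knockout passes came without knockout replicate 1, where 828 of all 16914 genes were called, and with array weights, where 11838 were. The cold pass came with array weights alone, where 8984 genes were called. Those weights did not converge, so these passes add little.

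Atp5g2 read 14.74, 15.10 and 14.96 in the knockouts, 14.52, 14.68 and 14.73 in the cold controls and 14.47, 14.52 and 14.67 in the room temperature controls. The knockout arrays lay above all others, though knockout replicate 1 (14.740) was barely above cold replicate 3 (14.732). The cold arrays overlapped with the room temperature controls. Atp5g2 stood at 0.38 ± 0.11 in the knockouts and 0.09 ± 0.11 in the cold controls (limma adjusted p = 0.152 and 0.657), and the cold controls minus the knockouts gave -0.29 ± 0.11 (limma adjusted p = 0.145). On a second, nearly as bright row of Atp5g2, in a cluster on chromosome 7, the knockout and cold arrays overlapped. There knockout replicate 1 read 14.730 and cold replicate 3 14.752. Atp5g3 read 10.50, 11.50 and 11.10 in the knockouts, 11.31, 11.31 and 11.30 in the cold controls and 11.31, 11.11 and 11.24 in the room temperature controls. The knockout arrays lay on both sides of the controls, and the differences were -0.19 ± 0.22 and 0.09 ± 0.22 (limma adjusted p = 0.720 and 0.858). The intervals of Atp5g3, -0.71 to 0.34 in the knockouts and -0.44 to 0.61 in the cold controls, leave room for a change of either sign.

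**Figure D3:**
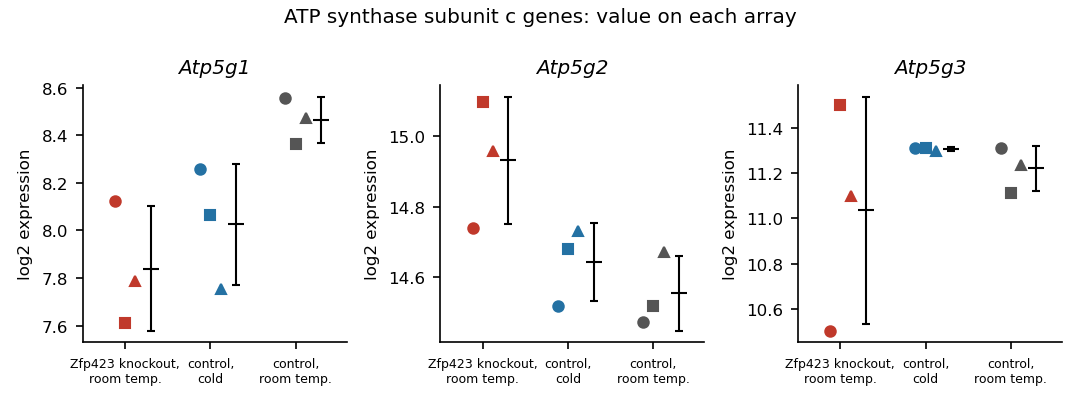
Log2 expression of the 3 subunit c genes of ATP synthase on each array, for knockouts, cold controls and room temperature controls from left to right, with the mean and SD of 3 arrays as bars. Atp5g1 is lower on all 6 knockout and cold arrays, Atp5g2 is highest in the knockouts, and Atp5g3 shows overlapping groups.

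The 2 conditions were also set against each other. The cold controls minus the knockouts gave a median of 0.18 over the 40 genes, with 28 above 0 and 12 below, and 0 of 40 passed (limma, 6 at an unadjusted p under 0.05), against 2.41% of all genes called in either direction (1.25% higher and 1.15% lower). The arrays did not overlap for 3 genes higher in the cold controls, Uqcrc1, Sdha and Atp5c1-ps (background 12.3%), and for 2 lower, Atp5g2 and Dmac2 (background 20%). Uqcrc1 differed by 0.94 ± 0.26 (95% interval 0.33 to 1.54, limma adjusted p = 0.0852) and Sdha by 0.46 ± 0.12 (0.18 to 0.73, limma adjusted p = 0.0764). Uqcrq differed by 0.56 ± 0.23 (0.03 to 1.10, limma adjusted p = 0.172). With Atp5g2 these made 4 of the 36 subunits whose interval excluded 0, which is the same as an unadjusted p under 0.05 (limma). Of all 16914 genes tested, 4530 had an unadjusted p under 0.05 in this comparison, a larger share than among the subunits. Over all 36 the intervals reached from -1.19, for Cycs, to 1.54, for Uqcrc1, and apart from Cycs the lowest lower end was -0.68, for Atp5md.

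The order of the knockout arrays was nearly the same for every gene. Knockout replicate 1 was the lowest of its group in 35 of 36 subunits and knockout replicate 2 the highest in 35 of 36, with Atp5g1 as the exception in both. The median SD over the 36 subunits was 0.43 in the knockouts, 0.15 in the cold controls and 0.10 in the room temperature controls. Relative to the room temperature control mean, the median over subunits was 0.51, 1.35 and 0.89 on knockout replicates 1, 2 and 3 and 1.21, 1.13 and 0.99 on cold replicates 1, 2 and 3. Knockout replicate 2 was thus above the cold arrays and knockout replicate 1 below them. Without knockout replicate 2 the cold controls were higher in 38 of 40 genes and 11 passed (limma), where 2705 of all 16914 genes were called, while without knockout replicate 1 they were higher in 19 of 40 and 0 passed (limma, 6 at an unadjusted p under 0.05).

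**Figure D4:**
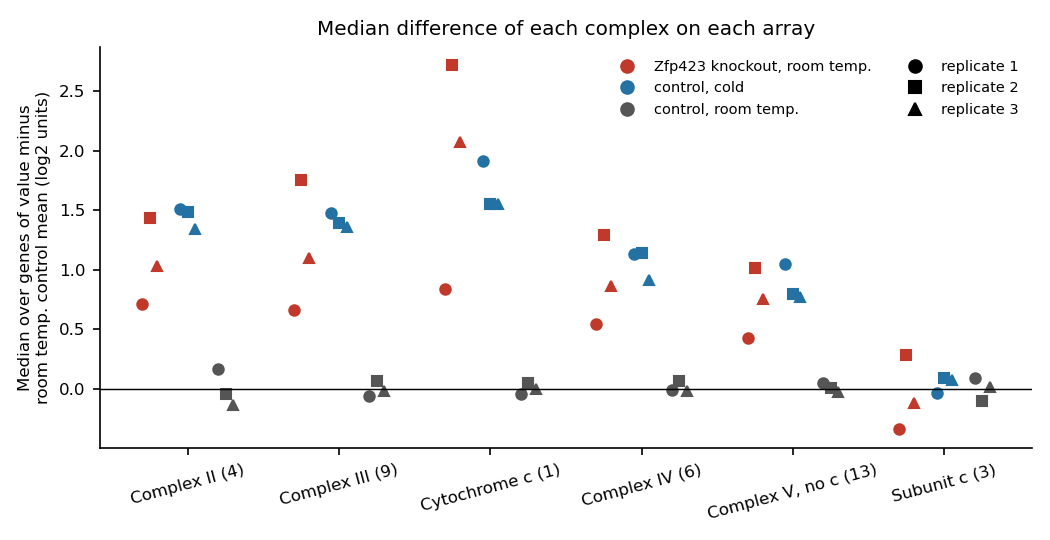
Median over the genes of each complex of the value minus the room temperature control mean, in log2 units, on each of the 9 arrays. Knockouts, cold controls and room temperature controls run from left to right within each complex, and the number of genes is given in brackets. The knockout arrays keep the order replicate 1, 3, 2 from low to high in each complex, and subunit c stays near 0 in the cold controls.

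Cell type markers moved with this order. The 10 beige markers, Ucp1 among them, had medians of 2.56, 5.51 and 4.66 on knockout replicates 1, 2 and 3 and of 3.88, 3.67 and 3.29 on the cold arrays, and 7 of 10 rose in the knockouts and 8 of 10 in the cold controls (limma). The 11 adipocyte markers stood at -0.41, 0.10 and -0.15 on the knockout arrays and at 0.06, 0.03 and 0.03 on the cold arrays. The 14 skeletal muscle markers, from a tissue rich in the same mitochondrial genes, stood at -1.68, 0.30 and -0.34 on the knockout arrays, 0.30, -0.80 and -4.07 on the cold arrays and -0.26, 0.31 and -0.02 on the room temperature control arrays. The cold arrays had the same order for the subunit median (1.21, 1.13 and 0.99) as for the muscle markers. The beige, adipocyte (0.064, 0.032 and 0.029) and endothelial markers (0.51, 0.42 and 0.14) had this order too, the adipocyte markers by little. An order of 3 arrays cannot tell these lists apart. Macrophage and B cell markers had the reverse order. Cold replicate 1 was the highest of its group in 29 of 36 subunits and cold replicate 3 the lowest in 26. The 8 T cell markers stood at 1.53, -0.24 and 0.91 on the knockout arrays and between -1.11 and -1.05 on the cold arrays. The 11 macrophage markers stood at 0.60, -1.02 and -0.27 on the knockout arrays and between -1.20 and -0.95 on the cold arrays. The 6 B cell markers stood at 0.48, -0.94 and -0.12 on the knockout arrays and between -1.88 and -0.73 on the cold arrays, and the 8 endothelial markers at -0.52, 0.06 and -0.17 and between 0.14 and 0.51. In these other lists, muscle, immune and endothelial, 0 markers passed in either comparison against the room temperature controls (limma). The part of cell composition in the subunit differences was not tested.

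**Figure D5:**
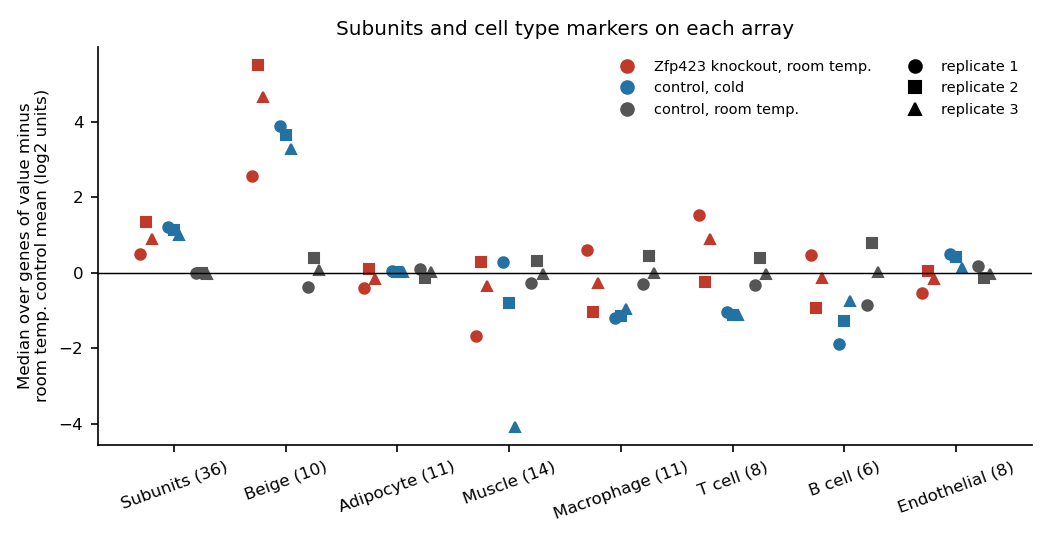
Median over the genes of each list of the value minus the room temperature control mean, in log2 units, on each of the 9 arrays, with the number of genes in brackets. Beige markers follow the subunits among the knockout arrays, T cell and macrophage markers run the other way, and muscle markers are lowest on cold replicate 3.

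Other genes of the pathway were described beside the subunits. Of 30 assembly factors of complexes II to V, 26 were measured, 0 passed in either comparison (limma, 15 at an unadjusted p under 0.05 in each), and the median was 0.38 in the knockouts and 0.42 in the cold controls. Lyrm7, a complex III assembly factor, stood at 0.45 ± 0.09 and 0.44 ± 0.09, and Cox17, which brings copper to complex IV, at 0.71 ± 0.17 and 0.87 ± 0.17. Atpif1, the inhibitor of ATP synthase, stood at -0.15 ± 0.16 and -0.21 ± 0.16 and Dmac2l, known as factor B, at -0.10 ± 0.10 and -0.02 ± 0.10. The row of the mitochondrial gene COX1 averaged 19.6, near the top of the scale at 19.93, where a rise might not be seen. The row of COX2 averaged 16.5 and stood at -0.01 ± 0.03 and -0.02 ± 0.03. Its knockout values (16.536, 16.534 and 16.547) and cold values (16.536, 16.519 and 16.532) moved in step with those of COX1. Those of COX1 were 19.625, 19.623 and 19.636, then 19.625, 19.608 and 19.621. In the room temperature controls COX1 read 19.380, 19.635 and 19.622 and COX2 16.547, 16.546 and 16.547, not in step on replicate 1. As the knockout and cold values moved in step, a lack of change cannot be read from COX2 either. In the list of mitochondrial biogenesis regulators 0 of 10 passed in either comparison (limma). The coactivator gene Ppargc1b stood at 1.87 ± 0.36 in the knockouts and 1.13 ± 0.36 in the cold controls (limma adjusted p = 0.0782 and 0.159), and Tfb2m, which starts mitochondrial transcription, at 0.56 ± 0.17 and 0.76 ± 0.17 (limma adjusted p = 0.188 and 0.0833).

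Related mitochondrial sets gave the following values. Of 38 complex I genes (symbols that begin with Nduf, assembly factors left out, Ndufa4 of complex IV and its relative Ndufa4l2 included), 0 passed in the knockouts and 11 rose in the cold, with medians of 0.75 and 0.95. Examples in the cold were Ndufa9 at 1.65 ± 0.21 and Ndufs8 at 1.57 ± 0.16 (limma adjusted p = 0.0163 and 0.0100). Of 16 citric acid cycle and pyruvate dehydrogenase genes, 3 rose in the knockouts and 11 in the cold, with medians of 1.02 and 1.5. Pdha1, Pdhb, Dlat and Pdhx belong to pyruvate dehydrogenase, and Pdha1, Pdhb and Dlat were among the 11. Sucla2, a subunit of succinyl-CoA synthetase, which makes the substrate of complex II, rose by 2.11 ± 0.23 in the knockouts (limma adjusted p = 0.0290) and by 2.22 ± 0.23 in the cold (limma adjusted p = 0.0110). Of 74 mitochondrial ribosomal protein genes, 0 passed in the knockouts and 2 rose in the cold, Mrpl16 and Mrpl50 at 0.92 and 0.98, with medians of 0.29 and 0.29. The differences between these sets and the 40 genes were not tested.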

How the data were processed

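Total RNA was hybridised to the Affymetrix Mouse Transcriptome Array 1.0, per the labels. The authors deposited log2 values for 72688 rows on 9 arrays, made with Affymetrix Expression Console per the submitters' processing notes. Neither its version, nor the summarisation, nor a genome build is stated in those notes or labels, and the log2 scale was read from the values, which run from 1.84 to 19.93. No detection call or depth comes with them.

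Rows were named through the platform annotation, with synonyms merged and symbols updated through RefSeq (GRCm38.p6, used for names, chromosomes and promoters). Rows with 1 gene and a mean at or above the median row mean (5.31) were kept, the brightest per gene. For 98.8% of named rows the transcript cluster lay on the chromosome RefSeq gives the gene. A further 2 rows that name a member beside another symbol were left out.

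The 3 groups were fitted together with limma 3.58.1 in R 4.3.3 (lmFit, eBayes, 6 residual and 1.23 prior degrees of freedom), two-sided, with Benjamini-Hochberg adjustment over 16914 genes. SE are moderated standard errors. Tested on simulated data for the cold comparison (50 genes per size), it called 48% of genes shifted by 0.5 log2 units, 74% at 1, 92% at 2 and 98% at 3, and 11 of its 167 calls were on unshifted genes. The simulation gave a gene the same spread in all groups and drew genes independently. The real knockout arrays spread more and kept a shared order, so these rates need not hold here.

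Members, gene lists, motifs and alternatives were chosen with earlier results of these data known. Array values are given for each member that passed (the 4 largest per complex), the extremes of each complex and the subunit c genes. Of other lists up to 3 genes that passed with the largest difference are named, or up to 2 with the smallest p where none passed; Atpif1, Dmac2l and the mitochondrial rows were added for their role. Promoters, motifs and the alternative rows of Cycs and Atp5l were chosen after the values were seen.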

Additional observations from a re-analysis of the deposited data

How the results depend on the processing

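Over the 20 alternatives the median difference moved by less than the spread between arrays, from 0.67 to 1.11 in the knockouts, 1.05 to 1.17 in the cold controls and -0.01 to 0.41 for cold against knockouts, whereas counts past the threshold depended on the setting. In the knockouts the count of 0 became 2 after quantile normalization again, 6 with a stricter filter on low rows and 40 with array weights, where the weights did not converge and 11838 of 16914 genes were called. Leaving out 1 array at a time gave 0 to 33. In the cold controls the count of 14 became 23 after quantile normalization again, 38 with array weights, where 8984 of all genes were called, 6 with no filter on low rows, which tests more genes, 33 with the 2 groups alone and 0 without the 3 arrays between the others. Leaving out 1 array at a time gave 0 to 32. Same-numbered arrays did not deviate together (correlations of deviations from the group means between -0.461 and 0.0845), so the numbers were not taken as pairs. With the replicate number as a block the cold count was 1, Uqcrc1 (limma adjusted p = 0.0473), and the block gave 0 in the knockouts and 0 for cold against knockouts, as the fit without it did. For cold against knockouts the count of 0 became 1 after quantile normalization again, 26 with array weights, where 9985 of all genes were called, and 1 with the 2 groups alone, and leaving out 1 array at a time gave 0 to 11. Beyond these constructions the cause was not tested. All 14 genes called in the cold were among the 23, 33 and 38 called there under other settings. Of 1440 values for 24 named genes, 1202 kept their side of the threshold, 121 no longer passed, 117 newly passed and 0 changed sign while passing. The highest member value, 17.08, lay below the top of the scale.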
